A study of Homo sapiens with 6 samples.

Results

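The Aurora and Polo kinases with the chromosomal passenger complex were taken as 10 genes by symbol: AURKA, AURKB, PLK1, PLK4, NEK2, BORA, TPX2, INCENP, BIRC5 and CDCA8. All 10 were measured, among 16834 genes in all. RNA-seq was performed on 6 libraries, 3 Flag-IPs and 3 HA-IPs, from asynchronous HEK293-T Flp-In cells, a human embryonic kidney line. Every library came from cells that stably carried the same ccTaggedRP construct, driven by the CAG promoter, which encodes 2 tagged copies of mouse ribosomal protein RPL10a from a single transcript. The Flag-tagged copy ends in a Cdt degron and was predicted to be present in G0/G1 and into S phase, and the HA-tagged copy ends in a Geminin degron and was predicted to be present from S phase into G2 and M. Immunoprecipitation (IP) of a tag recovers the RNA on ribosomes that hold that tag, so the comparison asks which transcripts were relatively more abundant with one tag than with the other. No synchronized or sorted cells entered this comparison, and input RNA was not analysed here.

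Aurora and Polo kinases are serine/threonine kinases that drive mitosis. Aurora A acts at centrosomes and spindle poles, where TPX2 activates it and BORA helps it to phosphorylate PLK1, the kinase that promotes mitotic entry, spindle assembly and cytokinesis. Aurora B is the enzyme of the chromosomal passenger complex, in which INCENP is the scaffold and survivin (BIRC5) and borealin (CDCA8) bring the complex to centromeres. PLK4 controls centriole duplication and NEK2 the separation of centrosomes. Most of these genes are known to be transcribed late in the cell cycle, through promoters that hold CHR (cell cycle genes homology region) elements and CCAAT boxes, and several of the proteins are degraded at the end of mitosis.

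BIRC5 was the only member called different between the IPs, 1 of 10 beside 7.10% of all genes called higher in the Flag-IPs. It was lower in the HA-IPs, by 18.1% (95% interval -23.6 to -12.2%, n = 3 per group). No other member passed the test, and the estimates of those 9 ran from 0.00 for CDCA8 to 0.18 for BORA on the log2 scale. The 95% intervals of AURKB, INCENP and TPX2 excluded 0 before adjustment. On a list of Aurora B partners, which work beside the passenger complex at kinetochores and the central spindle, 10 of 16 genes rose in the HA-IPs, beside 5.79% of all genes. That count was 1 without Flag-IP replicate 2, 4 to 6 without a single HA-IP and 0 with limma without its variance trend, and its difference from the members was not tested. The list was chosen with earlier results of these data known.

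Reads recovered from the table numbered 23174532 to 33429519 per Flag-IP and 28737728 to 44134833 per HA-IP, so that the members had between 207 reads (BORA) and 13514 reads (PLK1) in a library. Values below are normalized counts, the reads of a gene over a size factor of its library. Tests were made with limma on log2(normalized count + 1), with Benjamini-Hochberg adjustment over all 16834 genes and a threshold of 0.05. The labels do not say whether replicates came from separate cultures, so p-values measure only the spread between these samples. Of all genes, 975 passed in the direction of the HA-IPs and 1196 in that of the Flag-IPs, or 471 and 1576 with equal library totals. KRT8, KRT18, CDH2 and VIM, genes of these epithelial-like cells, were above 0 in all libraries, and EPCAM and CDH1 were called higher in the HA-IPs (2 of 7 listed), whereas 5 of 7 kidney tubule and podocyte genes were not in the table. Heart muscle genes separated the groups: 16 of 20 listed genes were measured, all 16 were called higher in the Flag-IPs, and their summed level was 68700 to 147234 normalized counts there and 1809 to 14045 in the HA-IPs. Of their defining markers, TNNI3, MYBPC3 and MYL2 were above 0 in every library and NPPA was not in the table. The 2 measured kidney genes, SLC34A1 and SLC12A1, were also called higher in the Flag-IPs, with a summed level of 86 to 188 against 3 to 11.

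Promoter sequence is shown for PLK1, INCENP and CDCA8, a kinase and 2 passenger complex subunits, because their windows hold both elements close to the start site. Each run is the 150 bases directly before the RefSeq start site, on the plus strand of GRCh38.p14, at chr16:23678739-23678888 for PLK1, chr11:62123861-62124010 for INCENP and chr1:37692366-37692515 for CDCA8. Capitals mark CHR letters (TTTGAA or TTTAAA) and CCAAT boxes, CCAAT or its reverse complement ATTGG.
PLK1: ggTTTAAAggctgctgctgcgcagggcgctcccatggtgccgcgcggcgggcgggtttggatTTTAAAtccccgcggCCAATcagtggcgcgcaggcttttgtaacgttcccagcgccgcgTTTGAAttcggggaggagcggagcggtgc
INCENP: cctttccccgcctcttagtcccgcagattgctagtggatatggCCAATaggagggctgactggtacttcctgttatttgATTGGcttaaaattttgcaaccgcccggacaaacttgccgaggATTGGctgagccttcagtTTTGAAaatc
CDCA8: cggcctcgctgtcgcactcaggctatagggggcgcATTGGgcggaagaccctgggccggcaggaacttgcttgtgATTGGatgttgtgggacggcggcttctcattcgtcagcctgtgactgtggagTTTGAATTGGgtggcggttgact
In CDCA8 the CHR letters at -23 to -18 from the start site share 1 base with the ATTGG at -18 to -14. RefSeq windows of 250 bases before to 50 after the start were held for 7 of the 10 members: AURKB, PLK1, PLK4, NEK2, BORA, INCENP and CDCA8. These 7 genes had 10 windows, 2 for AURKB and 3 for PLK4, one for each start site. Searched on both strands, CHR letters lay in 5 of the 10 windows (1 each of PLK1, PLK4, BORA, INCENP and CDCA8) and in 24% of 35116 promoter windows of the same length. CCAAT boxes lay in 8 of the 10 windows, with at least 1 in each gene, and in 34.6% of all windows. The 2 AURKB windows overlap and hold the same ATTGG, which is counted in each. The E2F letters TTTCCCGC or TTTGGCGC lay in 0 of the 10 and in 2.27% of all windows. Matches are given as a description of the letters and not as bound sites.

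Within the passenger complex, BIRC5 (survivin, chr17:78214186-78225636, plus strand, ENSG00000089685) was at 6211, 6366 and 5973 (normalized counts, replicates 1, 2 and 3) in the Flag-IPs, against 5048, 5060 and 5075 in the HA-IPs in the same order. Every Flag-IP lay above every HA-IP, and the HA-IPs were nearly equal to one another. Means were 6184 ± 198 and 5061 ± 13.3 (SD, n = 3 per group), a log2 fold change of -0.29 (SE 0.046, adjusted p = 0.0029, limma). This was 1 of 10 members called higher in the Flag-IPs, beside 7.10% of all genes. The difference was -0.31 to -0.27 on the log2 scale whichever single library was left out, and it was called in all 6 of those fits. It was also called with edgeR (adjusted p = 0.0027) and DESeq2 (adjusted p = 9.2e-06), but not with limma without its variance trend (adjusted p = 0.073). The heart and kidney marker genes above were higher in the same libraries as BIRC5, and their part in its difference was not tested. Because bulk lysates were precipitated, fewer cells that contribute a transcript and less of it per cell cannot be told apart.

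AURKB, the kinase of the complex (chr17:8204733-8210600, minus strand), was at 3177, 3086 and 3088 in the Flag-IPs and at 3297, 3548 and 3587 in the HA-IPs. The groups did not overlap, with HA-IP replicate 1 the closest to the Flag-IPs. Its log2 fold change of 0.16 (SE 0.051, 95% interval 0.04 to 0.27) missed the threshold (adjusted p = 0.067, limma). With the dependence on GC content and transcript length removed, the estimate was 0.315 with an adjusted p of 0.0088 (limma), the only setting of 17 in which AURKB was called.

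INCENP, the scaffold (chr11:62123998-62153169, plus strand), was at 6395, 7043 and 6934 in the Flag-IPs and at 7189, 7677 and 7345 in the HA-IPs. All HA-IPs lay above all Flag-IPs, and Flag-IP replicate 1 was the lowest. The log2 fold change was 0.12 (SE 0.052, adjusted p = 0.14, limma).

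CDCA8 (borealin, chr1:37692481-37709719, plus strand) was at 1662, 1790 and 1836 in the Flag-IPs and at 1853, 1643 and 1797 in the HA-IPs. The groups overlapped throughout, and means of 1762 ± 89.8 and 1764 ± 109 (SD, n = 3 per group) left a log2 fold change of 0.00. The 95% interval of that difference, -0.14 to 0.14, corresponds to -9.2 to 10.3% (adjusted p = 0.99, limma).

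Among the spindle kinases, AURKA (chr20:56369389-56392337, minus strand) was at 2866, 2619 and 2615 in the Flag-IPs and at 2890, 2749 and 2813 in the HA-IPs. Flag-IP replicate 1 lay within the range of the HA-IPs, so the groups overlapped. The log2 fold change was 0.06 (95% interval -0.06 to 0.18, adjusted p = 0.51, limma). Its activator TPX2 (chr20:31739271-31801805, plus strand) was at 8841, 9028 and 9006 in the Flag-IPs and at 9490, 9519 and 9840 in the HA-IPs, without overlap. The TPX2 estimate of 0.10 (SE 0.043) did not pass the test (adjusted p = 0.15, limma).

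PLK1 (chr16:23677656-23690367, plus strand), the mitotic Polo kinase, was at 8910, 9294 and 9031 in the Flag-IPs and at 9536, 9590 and 9491 in the HA-IPs. The groups did not overlap, but they lay close together, with a log2 fold change of 0.07 (SE 0.043, 95% interval -0.02 to 0.17, adjusted p = 0.32, limma). That interval corresponds to -1.6 to 12.2%. PLK1 shares exon bases with genes on the opposite strand, 553 with a long noncoding RNA gene and 58 with ERN2. Neither of those genes was measured, and the counting strand is unknown. BORA (chr13:72727749-72756198, plus strand), which presents PLK1 to Aurora A, was at 269, 234 and 256 in the Flag-IPs and at 288, 290 and 283 in the HA-IPs. All HA-IPs were higher, and Flag-IP replicate 2 was the lowest. BORA had the fewest reads, with a counting error of 6.95% in its shallowest library, and its log2 fold change of 0.18 (SE 0.10) did not pass the test (adjusted p = 0.27, limma). Its value is uncertain for another reason: 1180 of its exon bases are shared with DIS3 on the opposite strand, and the counting strand is not given in the sources used here. DIS3, a catalytic exosome subunit, was itself called higher in the HA-IPs (log2 fold change 0.35, adjusted p = 0.0066, limma).

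PLK4, the centriole kinase (chr4:127880893-127899224, plus strand), was at 1178, 1203 and 1118 in the Flag-IPs and at 1264, 1086 and 1241 in the HA-IPs. The HA-IPs held both the highest and the lowest value. NEK2 (chr1:211658657-211675630, minus strand) was at 1048, 962 and 983 in the Flag-IPs and at 1053, 991 and 1102 in the HA-IPs, again with overlap. Log2 fold changes were 0.04 for PLK4 (SE 0.071, adjusted p = 0.80, limma) and 0.07 for NEK2 (SE 0.067, adjusted p = 0.55, limma). AURKA, AURKB and NEK2 have annotated pseudogene copies, none of which was in the table, so reads that match a gene and its copy could have been lost to the counts.

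**Figure D1:**
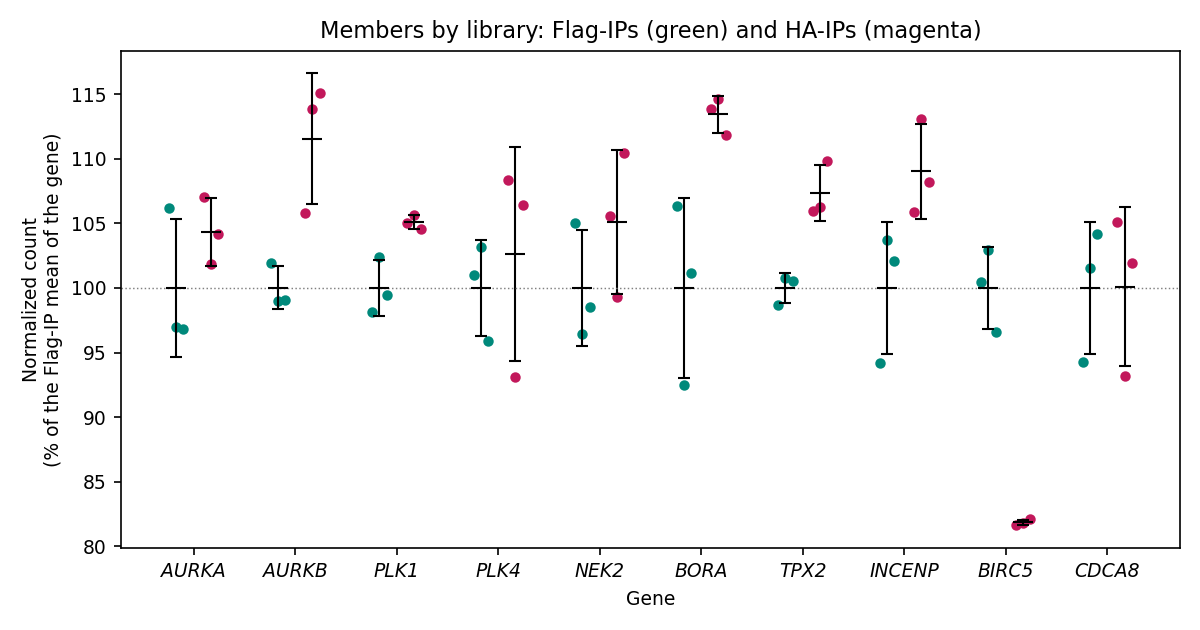
Normalized counts of the 10 members (y axis, percent of each gene's Flag-IP mean) in the 3 Flag-IPs (green) and the 3 HA-IPs (magenta), with the mean and SD in black. BIRC5 is the only gene whose HA-IPs all sit far below its Flag-IPs, whereas AURKB, PLK1, BORA, TPX2 and INCENP have all HA-IPs above all Flag-IPs.

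Read as a group, the members had small estimates that mostly lay above 0. None of the 10 was called higher in the HA-IPs with limma, beside 5.79% of all genes, and the count was also 0 with edgeR and with DESeq2. At that share, a count of 0 among 10 genes says little about the group. At an unadjusted p under 0.05, 3 members were higher in the HA-IPs (AURKB, TPX2 and INCENP), beside 2239 of all 16834 genes. For 5 of the 10 members the lowest HA-IP exceeded the highest Flag-IP, beside 16.1% of all genes, and the reverse held for BIRC5 alone, beside 16.1% of all genes. The median log2 fold change of the members was 0.07, against 0.00 over all genes. Of their estimates, 9 of 10 were above 0, beside 49% of all genes. Their summed level was 40557 to 41624 normalized counts in the Flag-IPs, against 41907 to 42574 in the HA-IPs. As a share of all normalized counts of a library it was 0.132 to 0.139% and 0.134 to 0.135%, so the groups overlapped. With the same total per library, the median of the members was 0.018, against -0.057 over all genes. The spread between replicates was 0.262 to 8.05% (coefficient of variation within a group), lowest for BIRC5 and highest for PLK4, both in the HA-IPs. The counting error of BIRC5 was 1.47% in the library with its fewest reads, so its near equality in the HA-IPs is not a measure of precision.

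**Figure D2:**
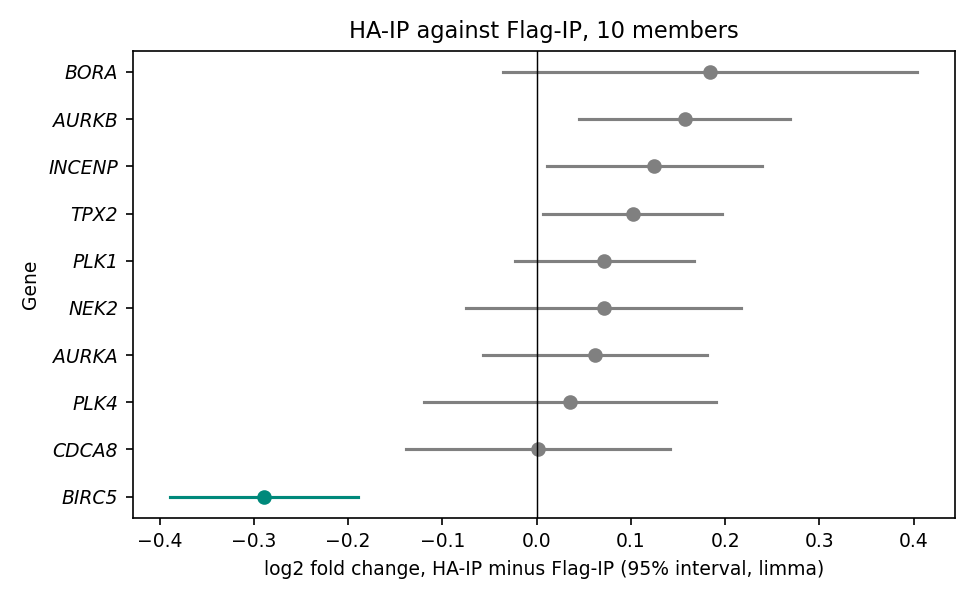
Log2 fold change, HA-IP minus Flag-IP (x axis), for each member (y axis), with the 95% interval from limma. BIRC5 (green) is the only member called, and the intervals of AURKB, INCENP and TPX2 also exclude 0 before adjustment.

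The ratio of BIRC5 to its partners within a library does not depend on the scaling between libraries. On the log2 scale, BIRC5 over AURKB was 0.967, 1.045 and 0.952 for the Flag-IPs and 0.615, 0.512 and 0.50 for the HA-IPs. BIRC5 over INCENP was -0.042, -0.146 and -0.215, against -0.510, -0.601 and -0.533. BIRC5 over CDCA8 was 1.901, 1.830 and 1.702 against 1.445, 1.622 and 1.497. In each case every Flag-IP lay above every HA-IP. The same held for the ratio of BIRC5 to each of the other 6 members, and the 9 differences ran from -0.29 (to CDCA8) to -0.47 (to BORA). Each had a two-sided exact permutation p of 0.1, the smallest that 3 against 3 libraries allow, and 0.14 after adjustment over the 13 ratios computed. All 9 share the BIRC5 values, so they are not separate observations. AURKB, PLK1, BORA, TPX2 and INCENP had every HA-IP above every Flag-IP. The separation and the p of their ratios were therefore fixed by the separate values and add nothing to them. Ratios among the others overlapped between the groups: AURKB to AURKA differed by 0.10, AURKB to CDCA8 by 0.16, TPX2 to AURKA by 0.04 and BORA to PLK1 by 0.11, with exact permutation p of 0.3, 0.2, 0.5 and 0.2. These ratios were chosen after the values had been seen.

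**Figure D3:**
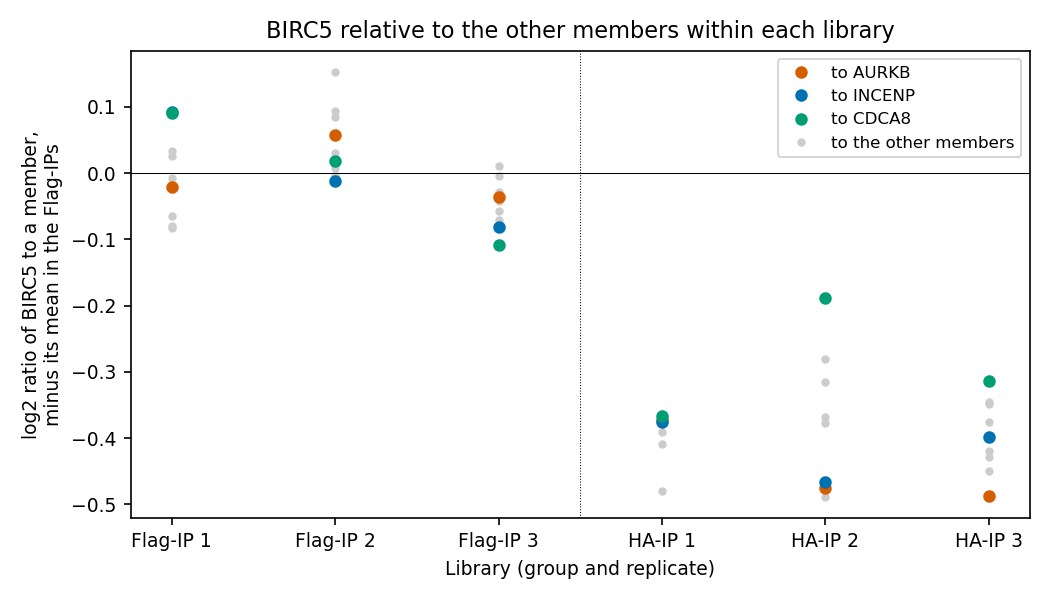
Log2 ratio of BIRC5 to each other member (y axis, minus its mean in the Flag-IPs) in each library (x axis), with the passenger complex partners AURKB, INCENP and CDCA8 in colour and the other 6 members in grey. All points of the HA-IPs lie below all points of the Flag-IPs in this plot.

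Levels between genes were compared per kilobase of the canonical transcript in GENCODE 44, and the order depends on that choice of length. Over all annotated transcripts PLK1 has 4760 exon bases, against 2160 in the canonical one, whereas TPX2 has 3605 against 3473. PLK1 had the highest level, at 4203 ± 90.8 normalized counts per kb for the Flag-IPs and 4416 ± 23 for the HA-IPs (SD, n = 3 per group). TPX2 (2579 and 2769 per kb) and AURKB (2508 and 2797 per kb) followed, changed places between the groups and overlapped within each of them. BIRC5 was the fourth in both groups, at 2402 per kb in the Flag-IPs, just under AURKB, and at 1966 per kb in the HA-IPs, nearer to INCENP (1651 and 1800 per kb). AURKA (1328 and 1386 per kb) and CDCA8 (743 and 744 per kb) came next. NEK2 (468 and 491 per kb), PLK4 (304 and 312 per kb) and BORA (91.7 and 104 per kb) closed the order. Apart from TPX2 and AURKB, neighbours in this order did not overlap in either group.

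Other genes of the pathway were read from lists by role. With limma without its variance trend, no gene of these lists was called in either direction. Aurora B partners at kinetochores and the central spindle moved the most: all 16 estimates were above 0, 10 of 16 genes rose in the HA-IPs, none fell, and the median log2 fold change was 0.23. KNL1, the kinetochore scaffold for checkpoint proteins, had the largest change of those called, at 2949 ± 316 in Flag-IPs and 3756 ± 123 in HA-IPs (SD, n = 3 per group; log2 fold change 0.35, adjusted p = 0.0092, limma). KIF20A, the kinesin that carries the passenger complex to the central spindle, went from 4978 ± 193 to 5953 ± 264 (SD, n = 3 per group; log2 fold change 0.26, adjusted p = 0.0094, limma). TTK, the checkpoint kinase MPS1, went from 2762 ± 93 to 3302 ± 128 (SD, n = 3 per group; log2 fold change 0.26, adjusted p = 0.0097, limma). Leaving out HA-IP replicate 1, 2 or 3 gave 4, 6 or 5 calls, and leaving out Flag-IP replicate 1 or 3 gave 9 or 11, while edgeR gave 9. The count was 7 with the same total per library and 8 with quantile normalization. As the lists were chosen with earlier results of these data known, their counts are a description.

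Aurora A and PLK1 spindle genes had 3 of 12 called higher in the HA-IPs, beside 5.79% of all genes, none lower, and a median of 0.09. These were CEP192, the centrosomal scaffold that recruits both kinases (0.29, adjusted p = 0.0085, limma), CKAP5, a microtubule polymerase (0.26, adjusted p = 0.024, limma), and KIF11, the kinesin that separates the poles (0.18, adjusted p = 0.036, limma). Without Flag-IP replicate 2, or with GC and length trends removed, the count was 0, and without any one HA-IP it was 1. It was 1 with quantile normalization and 2 with the same total per library or without Flag-IP replicate 1.

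CDK1 and the genes of mitotic entry had 3 of 16 called higher in the HA-IPs, beside 5.79% of all genes, and a median of 0.04. WEE1, the kinase that restrains CDK1 and is a PLK1 target, rose by 0.23 (adjusted p = 0.020, limma), CCNB1, cyclin B1, by 0.20 (adjusted p = 0.023, limma), and GTSE1 by 0.21 (adjusted p = 0.026, limma). Left-out libraries moved this count to 0 (Flag-IP replicate 2, HA-IP replicate 2 or HA-IP replicate 3) or 1 (HA-IP replicate 1), and it was 4 without Flag-IP replicate 1. It was 0 with the same total per library, 1 with quantile normalization and 5 with GC and length trends removed. With edgeR, with DESeq2 and in some other settings, 1 gene of this list was called lower, and 2 were without Flag-IP replicate 3. The largest estimate of the list was downward, CKS2 at -0.56 (adjusted p = 0.051, limma), which was not called. Of all estimates in the list, 9 of 16 were above 0.

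For the centriole genes that work with PLK4, 2 of 8 were called higher in the HA-IPs, beside 5.79% of all genes. These were STIL, the activator of PLK4 (0.20, adjusted p = 0.036, limma), and CENPJ (0.24, adjusted p = 0.046, limma). The count was 0 without Flag-IP replicate 2 or any HA-IP, 1 without Flag-IP replicate 1, and 0 with the same total, quantile normalization or GC and length trends removed. Of the centrosome linker genes that NEK2 controls, 0 of 7 measured were called (limma, edgeR and DESeq2) and 0 had an unadjusted p under 0.05, although 1 was called lower with GC and length trends removed and 1 without Flag-IP replicate 1. The other Aurora, Polo-like and NIMA-related kinases had 0 of 13 called by the same tools, with 1 at an unadjusted p under 0.05 and 1 called higher without Flag-IP replicate 3.

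Genes of the ligases and phosphatases that end Aurora and Polo signalling split, with 5 of 17 called higher in the HA-IPs and 2 lower, beside 5.79% and 7.10% of all genes. Higher were CDC20, the mitotic activator of the anaphase-promoting complex (0.23, adjusted p = 0.0084, limma), CDCA2, a targeting subunit of protein phosphatase 1 on chromatin (0.21, adjusted p = 0.024, limma), FZR1, the other activator of that ligase (0.19, adjusted p = 0.027, limma), CUL1 and PPP6R3. PPP1CB, a catalytic subunit of protein phosphatase 1 (-0.42, adjusted p = 0.017, limma), and SKP1 (-0.41, adjusted p = 0.025, limma) were lower. Without Flag-IP replicate 2 there were 0 calls in either direction, and without any one HA-IP there was 1 call higher. The balance depended on the scaling, with 1 higher and 3 lower at the same total per library and 3 and 2 with quantile normalization.

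The G2/M transcription list, the factors that act on CHR elements and CCAAT boxes, had 0 of 14 genes called higher in the HA-IPs (limma and edgeR; 1 with DESeq2; 2 at an unadjusted p under 0.05) and 2 called lower (4 at an unadjusted p under 0.05), beside 7.10% of all genes called lower. MYBL2, the B-MYB subunit of the MuvB complex in S and G2 phase, was at 10483, 10660 and 10856 in the Flag-IPs and at 8590, 9013 and 9001 in the HA-IPs, without overlap. Like BIRC5, it was lower in the HA-IPs (log2 fold change -0.27, SE 0.045, adjusted p = 0.0041, limma). LIN52, another MuvB subunit, differed by -0.39 (adjusted p = 0.024, limma). The number called lower was 1 without Flag-IP replicate 2 or any one HA-IP.

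**Figure D4:**
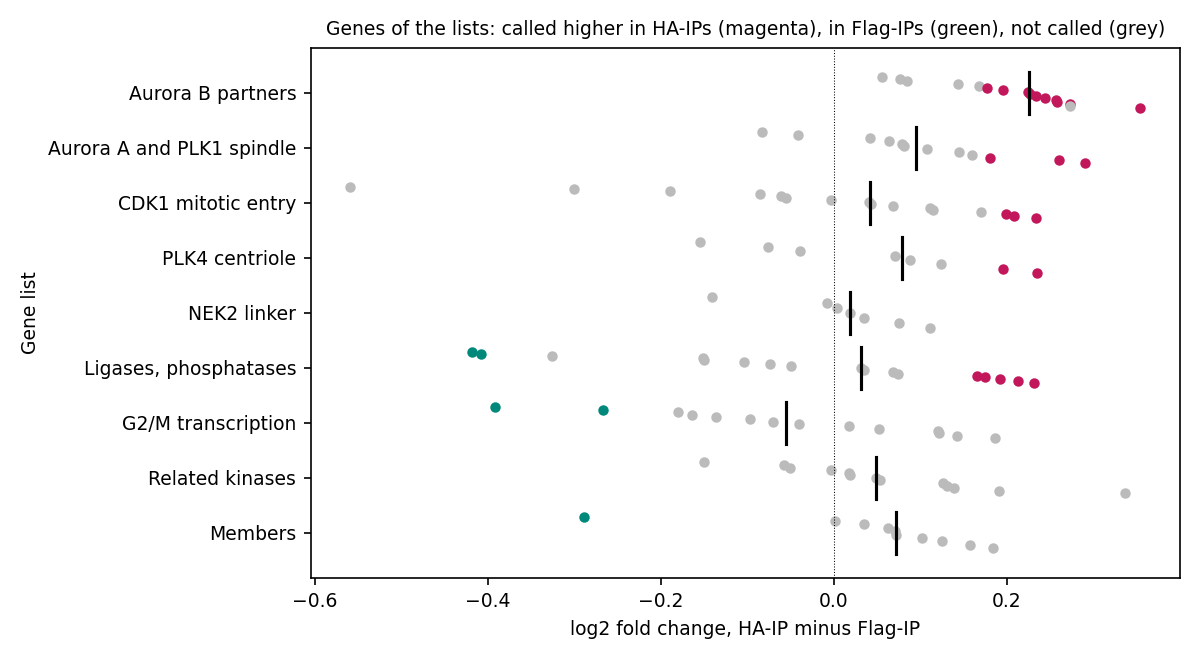
Log2 fold change, HA-IP minus Flag-IP (x axis), for each measured gene of 8 lists and the 10 members (y axis), with genes called higher in the HA-IPs in magenta, higher in the Flag-IPs in green and not called in grey, and black bars at the medians. The Aurora B partners lie to the right of 0 as a whole (median 0.23), whereas among the members the only coloured point is BIRC5, on the left.

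Among the genes whose pattern over the 6 libraries lay closest to the mean of the members, by Euclidean distance of centred log2 values among 11625 candidates, were SEC23A, SUZ12, UBL4A and CRNKL1. Their distances were 0.018 to 0.029 and their log2 fold changes 0.035 to 0.064. Of the members themselves BIRC5 lay farthest from that mean (0.42) and PLK1 closest (0.07).

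**Figure D5:**
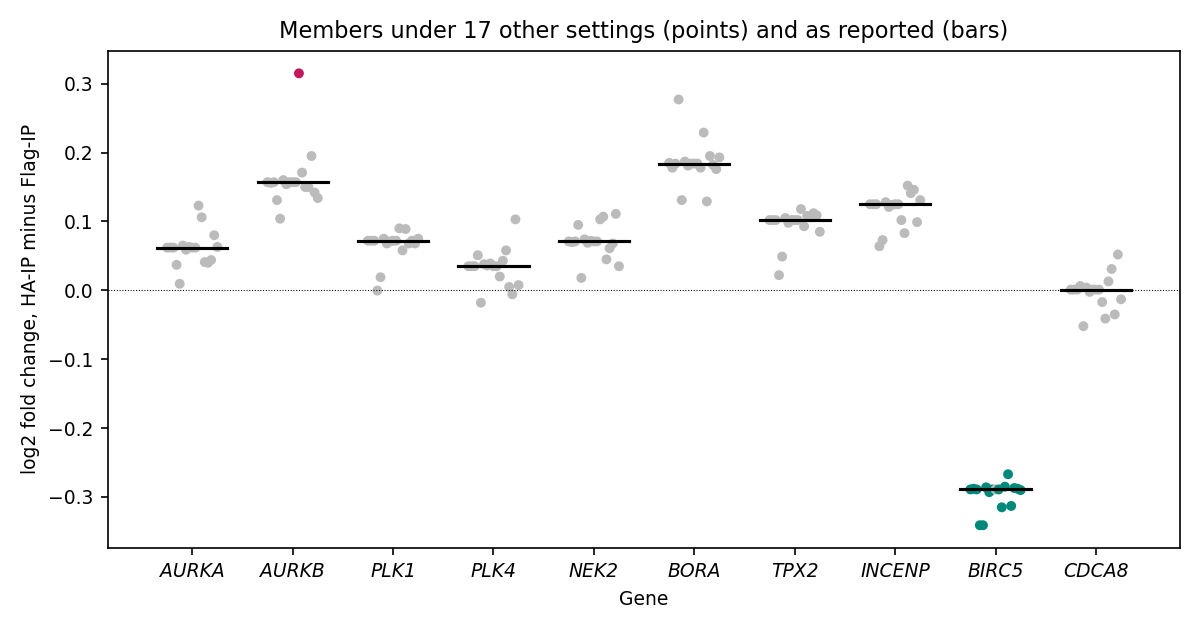
Log2 fold change of each member (y axis) under 17 other settings of the analysis (points) and as reported (black bars), coloured where the gene was called higher in the Flag-IPs (green) or in the HA-IPs (magenta). BIRC5 stays between -0.341 and -0.267 and is called in 16 of the 17, and AURKB is called once.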

How the data were processed

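The authors immunoprecipitated Flag or HA, selected poly(A) RNA and sequenced it as read pairs of 150 bp. The submitters' processing notes name Trimmomatic 0.36, STAR 2.5.2b, featureCounts of Subread 1.5.2, DESeq2 and GRCh38. The counting strand is not given in the sources used here. The deposited table holds a normalized signal: the reads of each gene over a size factor for the library, with genes of few reads excluded by the authors. It also holds the authors' log2 fold changes and adjusted p-values, which were not used.

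As the deposited values were normalized, limma 3.58.1 with a variance trend was run on log2(value + 1) (R 4.3.3). Within 0.01 read, 100% of values in each library were whole multiples of what 1 read is worth, and edgeR 4.0.16 (2131 genes called) and DESeq2 1.42.0 (2274 genes called) on these reads were alternatives. In HA-IP replicate 2, 1 read is worth 0.990, too close to 1 for an independent unit check to accept the recovery; its multiples were whole by the same criterion. Other alternatives were pseudocounts of 0.1 and 10, a mean of at least 50, other scalings, no variance trend, an adjusted p of 0.01, a replicate block, GC content and length trends removed (99.1% of genes with values in GENCODE 44), and each library left out. Scripts were tested on simulated data.

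Members and lists were chosen with earlier results of these data known. Named were all members, the 3 genes with the smallest adjusted p per list and direction, and the 5 genes most like the members with a mean of at least 100, of which 1 is not reported here; CUL1, PPP6R3 and DIS3 were named after their values were seen. Figures were drawn with matplotlib 3.10.9.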

Additional observations from a re-analysis of the deposited data

How the results depend on the processing

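BIRC5 was below 0 under all 17 alternatives (-0.341 to -0.267) and called in 16. Without limma's variance trend 0 members were called higher in the Flag-IPs, and 188 genes in all (6 higher in the HA-IPs, 182 lower). With GC content and length trends removed 1 member, AURKB, was called higher in the HA-IPs. At an adjusted p of at most 0.01, 704 genes were called. Leaving out single libraries gave 620 to 3059 genes, the fewest without Flag-IP replicate 2 and the most without Flag-IP replicate 3, while members called stayed at 0 and 1. Signs turned only for members that were not called: PLK1 was at -0.00034 with quantile normalization, PLK4 at -0.018 with the same total per library, and CDCA8 at -0.052 with the same total per library, -0.0023 with edgeR and -0.017 with GC and length trends removed. Over the left-out libraries PLK4 ran from -0.0058 to 0.103 and CDCA8 from -0.041 to 0.052. The cause of these changes was not tested.

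Deviations of the same-numbered libraries correlated at -0.156, 0.031 and -0.31, and those of differently numbered libraries at -0.243 to 0.302. With 3 libraries per group these values cannot decide whether the samples were paired. With the replicate block 1662 genes were called, including BIRC5 and no other member, and the ligases and phosphatases had 2 called higher and 2 lower.

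Depth limits BORA most, at 207 to 408 reads per library.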

Other observations

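Genes whose pattern lay closest to that of BIRC5 over the 6 libraries, a comparison chosen after its values were seen, were MCRS1, GHITM, R3HDM2, MEMO1 and AGBL5, at distances of 0.045 to 0.06. MCRS1, a spindle and chromatin protein, had means of 3454 normalized counts in the Flag-IPs and 2785 in the HA-IPs (log2 fold change -0.31, adjusted p = 0.0025, limma). GHITM, a mitochondrial inner membrane protein, had means of 7292 and 6024 (log2 fold change -0.28, adjusted p = 0.0036, limma). These genes were selected for this likeness, so their differences are a description.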
